A study of Mus musculus with 7 samples.

Results

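Genes that are used as markers of macrophages were followed in nasal tissue of mice exposed to diesel exhaust particles (DEP). The 10 genes are Cd68, Csf1r, Mrc1, C1qa, C1qb, C1qc, Lyz2, Cd163, Marco and Mpeg1. They are a list of names and were not picked by a rule on measured values, but earlier results of these data were known when they were chosen. They have 13 of the 39429 probes on the array, each assigned through the transcript it was designed on, and stand for 10 of 32095 gene names. Female BALB/c mice, 6 weeks old, inhaled DEP at 100 µg/m3 for 1 h a day on 5 days a week, given in saline through an ultrasonic nebulizer, and control mice received saline alone in the same way. No allele is named for either group. RNA of exposed mice carried the red dye Cy5 and RNA of control mice the green dye Cy3 on every array, so that each array gave 1 log2 ratio of DEP over control per probe, from 4 arrays at the 4-week time and 3 at the 8-week time. Dye and exposure cannot be told apart, because no array had the dyes swapped, and neither can slide and exposure time, because each time had a slide of its own. The sources used here do not state whether the RNA on an array came from 1 mouse or from several, so the p-values measure the spread between arrays, which may be technical.

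Macrophages are phagocytes that live in most tissues, including the nasal mucosa, where they take up particles and dead cells. CSF1R is the receptor through which they are kept alive by the growth factors CSF1 and IL34. C1qa, C1qb and C1qc encode the chains of C1q, the molecule that starts the classical complement pathway and marks particles for uptake, and tissue macrophages are a main source of all of them. The mannose receptor MRC1 and the scavenger receptors CD163 and MARCO bind their cargo at the cell surface, CD68 is a glycoprotein of late endosomes and lysosomes, LYZ2 is lysozyme, and MPEG1 is a pore-forming protein of phagosomes. Several of these genes are also expressed by other cells, Lyz2 in neutrophils and airway epithelium and Csf1r in other myeloid cells. In a bulk tissue sample, fewer cells of a type and less RNA per cell cannot be told apart.

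C1qb, C1qc and Mrc1 show how differently the genes behaved. C1qb and Mrc1 are the members whose log2 ratio changed between the exposure times, and C1qc is a neighbour of C1qb on the chromosome that did not pass the same test. The 250 bases before the start of each gene are printed here 5′ to 3′ on the gene's own strand, from RefSeq with the build GRCm38.p6, for 3 of the 8 members whose sequence was taken from the table. C1qb lies at chr4:136886201-136886450 on the minus strand, C1qc at chr4:136892915-136893164 on the minus strand, where a few of the bases nearest to the start lie within the gene as annotated, and Mrc1 at chr2:14229164-14229413 on the plus strand. Capitals mark GAGGAA, the core that the myeloid factor PU.1 binds, and TGCTGA, part of the site of MAF factors, on either strand.
C1qb: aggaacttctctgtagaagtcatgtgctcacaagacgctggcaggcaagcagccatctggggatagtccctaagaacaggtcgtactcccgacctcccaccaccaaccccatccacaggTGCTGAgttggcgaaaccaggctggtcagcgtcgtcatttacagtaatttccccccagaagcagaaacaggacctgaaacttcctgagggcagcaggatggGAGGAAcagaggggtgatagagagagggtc
C1qc: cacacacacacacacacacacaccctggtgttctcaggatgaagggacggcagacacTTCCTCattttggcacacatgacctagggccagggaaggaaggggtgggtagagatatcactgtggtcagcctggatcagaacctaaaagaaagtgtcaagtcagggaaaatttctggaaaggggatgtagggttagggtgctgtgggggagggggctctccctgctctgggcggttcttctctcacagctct
Mrc1: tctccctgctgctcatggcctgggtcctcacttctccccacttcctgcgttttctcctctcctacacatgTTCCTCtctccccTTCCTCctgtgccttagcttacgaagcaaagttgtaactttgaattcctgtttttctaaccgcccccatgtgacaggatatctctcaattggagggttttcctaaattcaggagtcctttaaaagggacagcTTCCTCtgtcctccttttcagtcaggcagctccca
GAGGAA or its reverse complement TTCCTC was present in all 3 of these sequences and in 5 of the 8 searched, against 23.3% of 32851 promoter sequences of the same length. TGCTGA was present in C1qb and Lyz2, and in 16.1% of all promoters. A TATA box (TATAAA) was in none of the 8 and in 12.4% of all. These matches describe the letters only.

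Of the 10 genes, 9 had a probe that passed the filter, which asked that the software mark the spot as well above background for 1 of the dyes or both, on 3 or more of the 7 arrays. Cd163 was not well above background on any array, with background-subtracted signals of -2 to 19. Marco was near the background as well, in the DEP channel above it on 1 of 4 arrays at 4 weeks and 2 of 3 at 8 weeks, and in the control channel on 0 of 4 and 2 of 3. The other 8 tested genes had signal above background for both dyes on each of the 7 arrays. The label of the list was checked against other genes of the same cells. Of 21 other genes of mononuclear phagocytes on the array 18 passed the filter, Tyrobp and Aif1 among them. Those that did not were Ptprc (the leukocyte antigen CD45), Siglec1 and Ccr2. Of 19 scavenger and lectin receptors on the array 12 passed, but not Msr1, Timd4 and Vsig4, among others. Spi1, which encodes PU.1, did not pass either. An array had 18476 to 25062 probes clearly above background for the DEP RNA and 16819 to 26920 for the control RNA, with 0 saturated spots. Log2 ratios over all probes correlated between arrays at 0.44 to 0.49 within 4 weeks, at 0.71 to 0.88 within 8 weeks and at 0.086 to 0.286 between the exposure times.

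After 4 weeks, C1qa and Mrc1 were lower in exposed than in control tissue, and no member was higher. Called means p no higher than 0.05 after Benjamini-Hochberg adjustment, in limma's moderated test over all 25124 probes tested. Among all 20636 gene names tested, 21.7% were called higher and 16.6% lower, so that 2 of 9 members called in either direction stood against 38.3% of all genes. The median log2 ratio of the 9 members was -0.05, and that of all genes was 0.0013. No member passed the thresholds of the study's methods, an unadjusted p of 0.01 with a change of 2-fold, which 0.935% of all genes passed upward and 0.368% downward at 4 weeks, 2.1% and 0.848% at 8 weeks, and 1.9% and 1.16% in the difference between the times. After 8 weeks, C1qb was higher and C1qa lower, against 20.4% of all genes higher, 17% lower and 37.4% in either direction, and the median of the members was -0.07. C1qb and Mrc1 had a higher log2 ratio at 8 than at 4 weeks, and no member a lower one, where 14.9% of all genes were called higher, 16.1% lower and 31% in either direction. With median centring in place of loess, C1qc (-0.24) and Marco (0.25) were called as well at 4 weeks. At 8 weeks C1qc (-0.36), Cd68 (-0.30), Csf1r (-0.43) and Lyz2 (-0.63) were then called lower and Marco (0.30) higher. The median over all probes on these arrays of 8 weeks then stood at -0.136 to -0.089. Median centring called 7572 of the 20636 gene names at 4 weeks, and 42.5% of those were higher. At 8 weeks it called 9409, and 26.9% of those were higher.

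**Figure D1:**
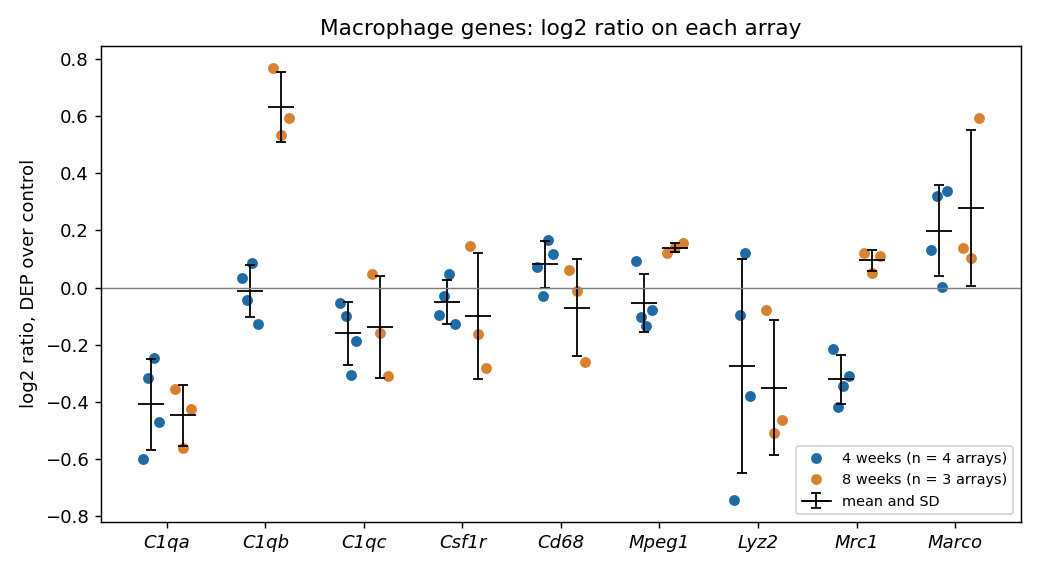
Log2 ratio of DEP over control (vertical axis) of the 9 tested macrophage genes on each of the 4 arrays at 4 weeks and the 3 arrays at 8 weeks (points), with mean and SD (bars). C1qa lies below 0 on all 7 arrays, C1qb is near 0 at 4 weeks and between 0.53 and 0.77 at 8 weeks, and Mrc1 is below 0 at 4 weeks and above it at 8 weeks.

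C1qa, the A chain of C1q, had log2 ratios of -0.60, -0.32, -0.25 and -0.47 on the 4 arrays at 4 weeks and of -0.35, -0.56 and -0.42 on the 3 arrays at 8 weeks. All 7 arrays were below 0, and the 2 times overlapped. The fitted log2 ratio was -0.41 (SE 0.068, adjusted p = 0.0031) at 4 weeks, which is a 1.33-fold lower level, and -0.45 (SE 0.079, adjusted p = 0.0038) at 8 weeks, 1.36-fold lower. Being lower on every array was common on these arrays, at 24.9% of genes at 4 weeks and 31.7% at 8 weeks. The difference between the times was -0.04, with a 95% interval of -0.28 to 0.20, so a change in either direction within that interval was not excluded by these arrays. C1qa was a dim probe, with background-subtracted signals of 56 to 130 in the DEP channel and 147 to 197.5 in the control channel.

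C1qb, the B chain, had log2 ratios of 0.03, -0.04, 0.09 and -0.13 at 4 weeks and of 0.77, 0.53 and 0.59 at 8 weeks. At 4 weeks the arrays lay on both sides of 0, and at 8 weeks all were above each 4-week array. The fitted values were -0.01 (SE 0.058, adjusted p = 0.88) at 4 weeks and 0.63 (SE 0.066, adjusted p = 0.00030) at 8 weeks, a 1.55-fold higher level in exposed tissue. The 2 times differed by 0.64 (SE 0.088, adjusted p = 0.0017). Groups of arrays that did not overlap, with 8 weeks above 4 weeks, were found for 21.1% of all genes.

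C1qc, the C chain, had log2 ratios of -0.05, -0.10, -0.31 and -0.19 at 4 weeks and of 0.05, -0.16 and -0.31 at 8 weeks. Only replicate 1 of 8 weeks was above 0. The fitted values of -0.16 (95% interval -0.32 to 0.00, adjusted p = 0.11) and -0.14 (-0.32 to 0.05, adjusted p = 0.21) did not pass the test, nor did their difference of 0.02, with an interval of -0.22 to 0.27. This probe has 10 spots on each array. Their unnormalized log2 ratios had an SD of 0.044 to 0.47 within an array, the widest on replicate 3 of 4 weeks.

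The genes of the C1q chains lie side by side on chromosome 4, in the order C1qb, C1qc, C1qa, and their products are assembled into 1 molecule. Between the exposure times, C1qb moved away from C1qa and C1qc in log2 ratio. Each chain was read by 1 probe, which for C1qb and for C1qa had 1 spot per array. The log2 ratio of C1qb was above that of C1qa by 0.64, 0.27, 0.33 and 0.34 on the arrays of 4 weeks and by 1.12, 1.097 and 1.02 on those of 8 weeks. Over C1qc it was above by 0.09, 0.06, 0.39 and 0.06 at 4 weeks and by 0.72, 0.69 and 0.90 at 8 weeks. The gap between C1qc and C1qa was -0.06 to 0.55 at 4 weeks and 0.12 to 0.41 at 8 weeks, so those ranges overlapped. These gaps are given as a description, with no test.

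The channels of the array, compared between the slides, gave the level in each group. In control tissue the normalized log2 intensity of C1qb was 7.57, 7.59, 7.54 and 7.57 at 4 weeks and 8.95, 9.04 and 9.05 at 8 weeks. In exposed tissue it was 7.61, 7.55, 7.63 and 7.44 at 4 weeks and 9.72, 9.57 and 9.64 at 8 weeks. C1qb was thus higher at 8 weeks in both channels, by 1.44 (SE 0.066, adjusted p = 5.2e-09, 2.72-fold) in control tissue and by 2.09 (SE 0.066, adjusted p = 8.0e-11, 4.25-fold) in exposed tissue. Before any normalization, its background-subtracted signal was 92.5 to 160 at 4 weeks and 455 to 602 at 8 weeks over both channels. C1qb was the only member past the study's thresholds in these comparisons, which 1.62% of all genes passed upward and 1.07% downward in the control channel, and 3.59% and 1.3% in the DEP channel. For C1qa the same differences were -0.03 in control tissue and -0.07 in exposed tissue, and for C1qc 0.01 and 0.03, and none of them passed the test. The age of the mice, the slide and the exposure time cannot be told apart in these comparisons.

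**Figure D2:**
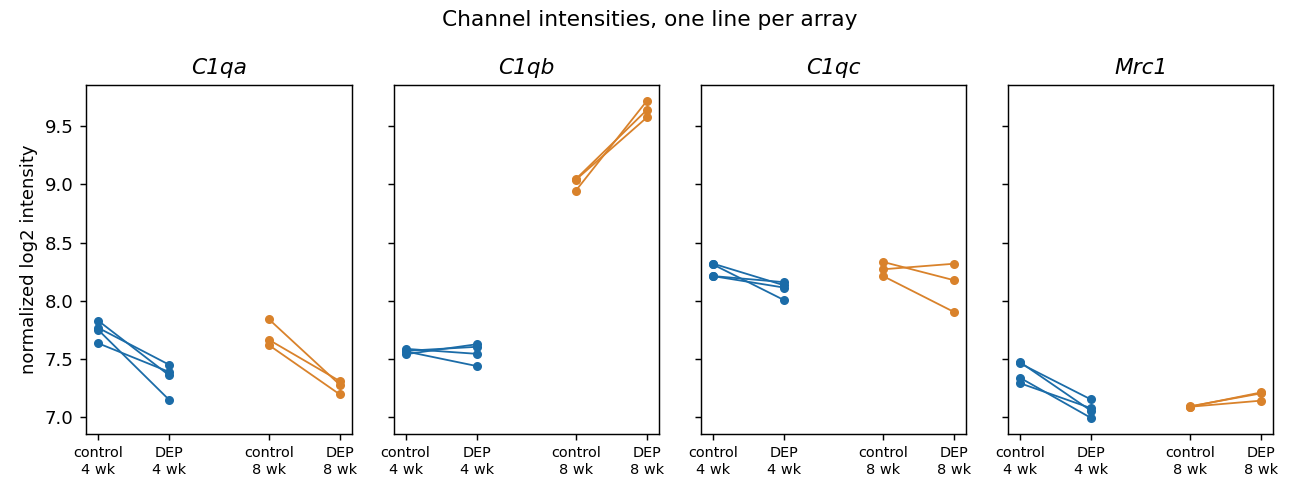
Normalized log2 intensity (vertical axis) of C1qa, C1qb, C1qc and Mrc1 in the control and the DEP channel at 4 and 8 weeks, with 1 line for each array. Heights of different genes are not comparable, and within a gene the step of C1qb from 7.54 to 7.59 in the controls of 4 weeks to 8.95 to 9.05 in those of 8 weeks exceeds every difference between channels.

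Mrc1, the mannose receptor, had log2 ratios of -0.21, -0.42, -0.34 and -0.31 at 4 weeks and of 0.12, 0.05 and 0.11 at 8 weeks. The arrays of 4 weeks were all below 0, those of 8 weeks all slightly above it, and the times did not overlap. Of all genes, 24.9% were lower on every array of 4 weeks and 35.3% higher on every array of 8 weeks. Times that did not overlap, with 8 weeks higher, were found for 21.1%. Mrc1 was 1.25-fold lower in exposed tissue at 4 weeks, with a log2 ratio of -0.32 (SE 0.048, adjusted p = 0.0018). At 8 weeks the value was 0.10 (SE 0.055, adjusted p = 0.22), which did not pass the test. The difference between the times was 0.42 (SE 0.073, adjusted p = 0.0050). By channel, the control level of Mrc1 was lower at 8 than at 4 weeks, by -0.30 (SE 0.061, adjusted p = 0.0023), with log2 intensities of 7.29 to 7.47 at 4 weeks and of 7.09 to 7.10 at 8 weeks. In the DEP channel the difference was 0.12 (SE 0.061, adjusted p = 0.14), with 6.996 to 7.15 at 4 weeks and 7.14 to 7.22 at 8 weeks. In this fit the difference between the times in the ratio of Mrc1 went with a lower control level at 8 weeks, where C1qb was higher in both channels. When only probes were kept that had signal for both dyes on each of the 7 arrays, the control-channel difference of Mrc1 was -0.15 and was no longer called (adjusted p = 0.076). The DEP-channel difference was then 0.26 and was called (adjusted p = 0.0032). The channel that differed between the times thus depended on the filter. Its background-subtracted signals were 60.5 to 128.5, near the lower end of what was tested.

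Csf1r, the receptor of CSF1 and IL34, was measured by 3 probes, and they disagreed. The brightest, with background-subtracted signals of 872 to 1917.5, had log2 ratios of -0.09, -0.03, 0.05 and -0.13 at 4 weeks and of 0.14, -0.16 and -0.28 at 8 weeks. It was on both sides of 0 at each time, and was not called (-0.05, adjusted p = 0.61, and -0.10, adjusted p = 0.39). The second probe was above 0 on all 7 arrays, at 0.33, 0.35, 0.22 and 0.34 at 4 weeks and at 0.25, 0.13 and 0.14 at 8 weeks. It was called higher at both times, by 0.31 (SE 0.046, adjusted p = 0.0018) and 0.17 (SE 0.054, adjusted p = 0.038). Other ways of processing were compared for the brightest probe of each gene only, so these calls were not checked in that way. Before normalization, the background-subtracted DEP signals of this second probe at 8 weeks were 219.5, 207 and 167, against 238.5, 255.5 and 230 for the control. Among all probes, 20.9% were called higher at 4 weeks and 18.8% at 8 weeks. The third probe, the dimmest with 26 to 68.5, had 0.09 (adjusted p = 0.28) and -0.11 (adjusted p = 0.25). A direction for Csf1r as a gene was not given by these probes.

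Lyz2, the lysozyme of myeloid cells, had the largest SD of the members between arrays at 4 weeks. Its log2 ratios were -0.74, -0.10, 0.12 and -0.38 at 4 weeks and -0.08, -0.51 and -0.46 at 8 weeks. Replicate 3 of 4 weeks alone was above 0. The mean of -0.27 ± 0.37 (SD, n = 4) at 4 weeks was within that spread, all 3 arrays of 8 weeks were below 0 with a mean of -0.35 ± 0.24 (SD, n = 3), and neither passed the test (adjusted p = 0.15 and 0.12 in limma). Lyz1, a close paralog beside it whose transcript a probe may share, was higher at 4 weeks on all 4 arrays (0.50, 0.58, 0.60 and 0.49) with a fitted value of 0.54 (adjusted p = 0.00020), and was 3e-04 (adjusted p = 0.998) at 8 weeks. Neutrophils also express Lyz2. Of all genes, 16.6% were lower and 21.7% higher at 4 weeks, and 17% and 20.4% at 8 weeks. At 4 weeks 6 of 10 tested neutrophil markers were lower and 2 higher, and at 8 weeks 6 lower and 2 higher. Among the lower were S100a9 (-1.71 and -1.80) and Retnlg (-1.19 and -0.76), and among the higher Csf3r (1.28 and 1.07). The median of the neutrophil markers on single arrays was -0.66 to -0.37 at 4 weeks and -0.92 to -0.76 at 8 weeks, and their part in the values of Lyz2 was not tested.

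Cd68, the lysosomal glycoprotein, had log2 ratios of 0.07, -0.03, 0.17 and 0.12 at 4 weeks and of 0.06, -0.01 and -0.26 at 8 weeks. The values of the times overlapped, and neither mean was called (0.08, 95% interval -0.07 to 0.23, and -0.07, -0.24 to 0.10). Mpeg1, the pore-forming protein of phagosomes, had 0.09, -0.10, -0.13 and -0.08 at 4 weeks and 0.12, 0.14 and 0.15 at 8 weeks. All 3 arrays of 8 weeks were above every array of 4 weeks, as was the case for 21.1% of all genes. The fitted values of -0.05 (adjusted p = 0.42) and 0.14 (adjusted p = 0.099) and their difference of 0.19 (adjusted p = 0.095) did not pass the test. In the DEP channel, Mpeg1 was higher at 8 than at 4 weeks, by 0.37 (SE 0.070, adjusted p = 0.00086), as was C1qb, against 23.2% of all genes higher, 21.6% lower and 44.8% in either direction. In the control channel, where C1qb was higher and Mrc1 lower against 18.2% of all genes higher, 12.6% lower and 30.8% in either direction, the difference was 0.18 (adjusted p = 0.075). The second Mpeg1 probe was not well above background on any array.

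Marco, the scavenger receptor, was above 0 on all 7 arrays, at 0.13, 0.32, 0.00 and 0.34 at 4 weeks and at 0.14, 0.10 and 0.59 at 8 weeks. Higher on every array were 29.7% of all genes at 4 weeks and 35.3% at 8 weeks. Its background-subtracted signals were 4.5 to 27 on all arrays but replicate 3 of 8 weeks, which had 80.5 in the DEP and 61 in the control channel. The fitted values of 0.20 (adjusted p = 0.13) and 0.28 (adjusted p = 0.081) did not pass the test, and without replicate 3 the second was 0.12. Since the control channel of Marco was not well above background on any array of 4 weeks, no fold change can be read there.

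**Figure D3:**
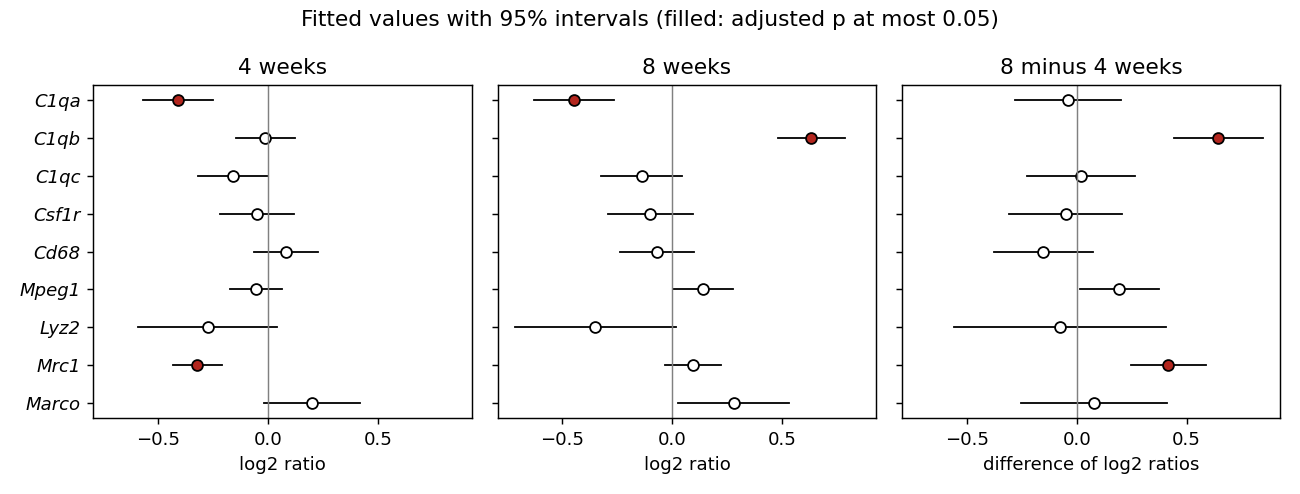
Fitted log2 ratio of DEP over control at 4 and 8 weeks and the difference of the 2 log2 ratios (horizontal axes), with 95% intervals, for the 9 tested genes. Filled points passed an adjusted p of 0.05, which were C1qa and Mrc1 at 4 weeks, C1qa and C1qb at 8 weeks, and C1qb and Mrc1 in the difference.

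The growth factors of macrophages, the receptor chains Csf2ra and Csf2rb and the transcription factors of myeloid cells formed a list of 11 tested genes. At 4 weeks 7 of the 11 were lower and 0 higher, with a median log2 ratio of -0.24. At 8 weeks 2 were higher and 1 lower, with a median of 0.14. Of all genes, 16.6% were lower and 21.7% higher at 4 weeks, and 17% and 20.4% at 8 weeks. At 4 weeks 4 genes were called without replicate 2, with normexp fitted on all spots and by the methods' t-test. At 8 weeks 5 were called without replicate 1 of 4 weeks and 6 with the processed signals of the scanner software. Csf1 was -0.34 (adjusted p = 0.0025) at 4 weeks, lower on all 4 arrays, and 0.16 (adjusted p = 0.093) at 8 weeks, and Il34 was -0.48 (adjusted p = 0.041) and -0.10 (adjusted p = 0.72), where replicate 1 of 8 weeks was below 0 and the other arrays of that time, at 0.22 and 0.21, above it. Maf, a transcription factor of macrophages and lymphocytes, had -0.28, -0.20, -0.20 and -0.10 at 4 weeks and 0.82, 1.04 and 0.99 at 8 weeks. Both of its means were called (-0.19, adjusted p = 0.025, and 0.95, adjusted p = 2.6e-05), as was the difference of 1.15 (adjusted p = 9.6e-05). Klf4 was higher at 8 weeks (0.63, adjusted p = 0.0088), and Cebpa, a factor of granulocyte and macrophage progenitors and of epithelium, was lower at both times (-0.24 and -1.01).

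Complement genes other than those of C1q were lower at 4 weeks in 9 of 15 tested and higher in 1, with a median of -0.30. At 8 weeks 4 of the 15 were higher and 1 lower, with a median of 0.09. The log2 ratio was called higher at 8 than at 4 weeks for 7 and lower for 1. The shares of all genes were 16.6% lower and 21.7% higher at 4 weeks, and 17% and 20.4% at 8 weeks. In the difference they were 16.1% lower and 14.9% higher. Of the 10 called at 4 weeks, the number was 6 without replicate 3, with only the arrays of that time or with no filter, and 4 by the methods' t-test, and of the 5 at 8 weeks it was 3 without replicate 2. C1s1 and C1ra encode the proteases that sit on C1q. C1s1 had -0.77, -0.45, -1.20 and -0.38 at 4 weeks, with a mean of -0.70 (adjusted p = 0.0039), and 0.12 (adjusted p = 0.56) at 8 weeks. C1ra had -0.39, -0.37, -0.57 and -2.39 at 4 weeks, so that replicate 4 stood far below the other arrays, and its mean of -0.93 had an adjusted p of 0.047. C1rl, a C1r-like protease, was higher at both times (0.21, adjusted p = 0.035, and 0.72, adjusted p = 0.00026), and Cfd, the adipsin of the alternative pathway, was lower at both (-0.32, adjusted p = 0.0034, and -0.72, adjusted p = 0.00011). Cd93, a receptor of phagocytes and endothelium, and Cfb changed sign, from -0.42 to 0.27 and from -0.30 to 0.29, and were called at both times.

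Among 18 other tested genes of mononuclear phagocytes, 5 were higher and 7 lower at 4 weeks, and 2 higher and 3 lower at 8 weeks. The shares of all genes were 21.7% higher and 16.6% lower at 4 weeks, and 20.4% and 17% at 8 weeks. In place of 12 called at 4 weeks, 7 were called with normexp fitted on all spots, with the filter on both channels and by the methods' t-test, and in place of 5 at 8 weeks, 2 without replicate 2. Cd14, the coreceptor for lipopolysaccharide, was the lowest of those called at 4 weeks, at -1.34, -1.35, -1.37 and -1.50, and was 0.14 (adjusted p = 0.14) at 8 weeks. Itgam, the integrin chain CD11b, was higher at both times (0.77, adjusted p = 0.00015, and 0.67, adjusted p = 0.00053), whereas Tyrobp, an adaptor of myeloid receptors, was lower at both (-0.49, adjusted p = 0.0012, and -0.40, adjusted p = 0.0053). Ms4a7 was lower at both as well (-0.47 and -0.32). Aif1 (-0.04 and 0.10) was not called, and nor was Adgre1, which encodes the F4/80 antigen (-0.20 and -0.79), whose value at 8 weeks rests on replicate 1 at -2.37 against -0.15 and 0.16.

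Of 12 scavenger and lectin receptors, 2 were higher and 5 lower at 4 weeks, and 0 higher and 2 lower at 8 weeks. Over all genes, 21.7% were higher and 16.6% lower at 4 weeks, and 20.4% and 17% at 8 weeks. At 4 weeks the 7 called were 4 without replicate 2 or 4, with normexp fitted on all spots and by the methods' t-test, and 3 with the filter on both channels, and at 8 weeks 1 was called without replicate 2 and by the methods' t-test. Clec4n, the lectin dectin-2, had -0.55 (adjusted p = 0.00090) and 0.05 (adjusted p = 0.66), and Cd36, a receptor for oxidized lipoproteins, was lower at both times (-0.30 and -0.61). Clec4d at 4 weeks was well above background on 0 of 4 arrays for the DEP RNA and on 3 of 4 for the control RNA. Its log2 ratios were -0.84, -0.90, -2.07 and -0.58, so that replicate 3 stood far below the other arrays. The mean of -1.10 was called (adjusted p = 0.0058). Since the DEP channel was not well above background on any of these arrays, no fold change is given. Of 20 phagosome and lysosome genes, 2 were higher and 7 lower at 4 weeks, and 3 higher and 10 lower at 8 weeks. Their medians were -0.14 and -0.21, and the shares over all genes given for the receptors apply here too. Of the 13 called at 8 weeks, the number was 5 without replicate 2, 8 without replicate 3 and 6 by the methods' t-test. The lysosomal lipid-handling proteins Npc2 (-0.83 and -1.14) and Psap (-0.44 and -1.35) were lower at both times, and so was the protease Ctsl (-0.80 and -0.41). Lgals3, the lectin galectin-3, was higher at 8 weeks (0.36, adjusted p = 0.0087). These genes are expressed in most cell types, so that their values are not those of macrophages alone.

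The genes of macrophage activation were lower at 4 weeks in 11 of 16 tested and higher in 3, with a median of -0.43. At 8 weeks 3 were higher and 4 lower, with a median of -0.06. Of all genes, 16.6% were lower and 21.7% higher at 4 weeks, and 17% and 20.4% at 8 weeks. In place of 14 called at 4 weeks, 9 were called without replicate 2 and with the filter on both channels, and 8 with normexp fitted on all spots and by the methods' t-test. The cytokines Il6 and Il1b were lower at 4 weeks, at -2.09 (adjusted p = 1e-05) and -0.92 (adjusted p = 2.3e-05). At 8 weeks Il1b was -0.03 (adjusted p = 0.74), and Il6 was not well above background in either channel on any array, so that no ratio is given. Chil3, a secreted chitinase-like protein of alternatively activated macrophages, was lower at 4 weeks (-0.50, adjusted p = 0.0011) and higher at 8 weeks (1.03, adjusted p = 5e-05). Trem1 was higher at both times (0.56 and 0.59), and Spp1, osteopontin, was lower at both (-0.57 and -0.56).

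Markers of other cells were counted on the same arrays. Of all genes, 21.7% were called higher and 16.6% lower at 4 weeks, and 20.4% and 17% at 8 weeks. The counts of some lists below are near these shares. B cell markers were lower at 4 weeks in 4 of 6 tested and higher at 8 weeks in 4 of 6, with medians of -0.21 and 0.43, and of the T cell markers 1 of 6 was higher and 1 lower at 4 weeks and 3 of 6 higher at 8 weeks. Markers of olfactory neurons were higher in 4 of 7 at 4 weeks and lower in 6 of 7 at 8 weeks, with medians of 0.44 and -0.46 and ranges over single arrays of 0.34 to 0.62 and of -0.65 to -0.38. Osteoclasts are macrophage relatives in the bone that surrounds the nasal cavity, and 4 of 7 of their markers were lower and 1 higher at 4 weeks, and 3 higher and 2 lower at 8 weeks. Mast cell markers were lower in 2 of 4 at 4 weeks, and 1 was higher and 1 lower at 8 weeks. Of 5 dendritic cell markers 1 was higher at each time, and of 7 markers of respiratory epithelium 2 were higher and 1 lower at 4 weeks and 3 higher and 1 lower at 8 weeks. These counts of calls moved with the processing. At 4 weeks the B cell count was 0 by the methods' t-test and 2 with normexp fitted on all spots or the filter on both channels, the T cell count 1 without replicate 3 or 4, the osteoclast count 3 without replicate 4 and the mast cell count 1 without replicate 1 or 4, without replicate 2 of 8 weeks or with only the arrays of that time, and 0 by the methods' t-test, and the dendritic cell count was 0 without replicate 2 and 3 without replicate 4. At 8 weeks the olfactory neuron count was 3 without replicate 2, the B cell count 2 and the T cell count 1 with the filter on both channels, the mast cell count 1 without any 1 of the arrays of that time, and the dendritic cell count 2 without replicate 2, 3 or 4 of 4 weeks. The part of these cells in the values of the macrophage genes was not tested.

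**Figure D4:**
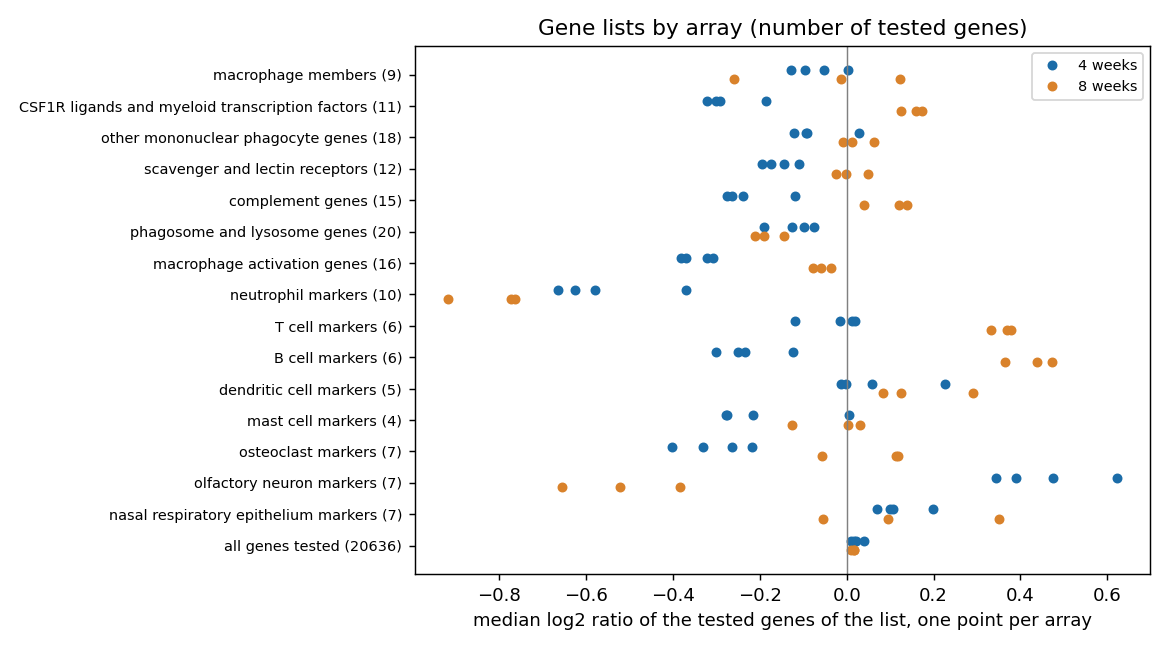
Median log2 ratio of DEP over control (horizontal axis) over the tested genes of each list, with 1 point for each array and the number of genes in brackets. The medians of the macrophage genes lie between -0.13 and 0.00 at 4 weeks and between -0.26 and 0.12 at 8 weeks, and those of all genes between 0.01 and 0.04.

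The genes whose log2 ratios over the 7 arrays lay nearest to the mean of the C1q chains were Lmna, H2-D1, Ash2l, Il20rb and Ppia, with a mean absolute difference of 0.034 to 0.051. None of them is on the lists above. C1qb moved away from C1qa and C1qc, so that this mean is the profile of none of the chains.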

How the data were processed

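RNA of nasal tissue from DEP-exposed (Cy5) and control (Cy3) mice was hybridised on 7 two-colour Agilent arrays. The authors deposited the output of Feature Extraction 10.10.1.1, and the intensity values used here are its median spot and background signals, not normalized. Backgrounds were subtracted and corrected by normexp (offset 50) with limma 3.58.1 in R 4.3.3, with parameters fitted without spots that the software marked as background outliers, since the fit over all spots shifted on replicate 2 of 4 weeks and, less, on replicate 2 of 8 weeks. Log2 ratios were normalized by loess within arrays, non-uniform spots were left out and repeated spots averaged. Probes with signal well above background for either dye on 3 or more arrays were tested (25124) in 1 linear model with a mean per time, with Benjamini-Hochberg adjustment over them. A gene's value is that of its brightest tested probe. Channels were compared after Aquantile normalization with separate channel analysis (intraspot correlation 0.397), on probes with a value on every array. Symbols came from RefSeq accessions (28330 probes) or the files.

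All members were named. From each other list, up to 3 genes a direction with the largest called log2 ratios were named, with a few fixed genes. Some genes that this rule would name are not reported here. The members and lists were chosen with earlier results of these data known. The fits of ratios and channels were tested on simulated log2 ratios, and the steps before those fits were not. The number of arrays limits the precision.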

Additional observations from a re-analysis of the deposited data

Results flagged for a closer look

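The log2 ratio of DEP over control differed between the exposure times for Mrc1, by 0.42, and for C1qb, by 0.64, in the limma test of the difference itself. Mrc1 was lower on 4 of 4 arrays at 4 weeks and higher on 3 of 3 at 8 weeks, where its fitted value of 0.10 was not called. C1qb was higher on 3 of 3 arrays at 8 weeks and on 2 of 4 at 4 weeks. Of all genes, 24.9% were lower on every array of 4 weeks and 35.3% higher on every array of 8 weeks. Each exposure time lies on its own slide, and slide and time cannot be told apart. No array stood apart from the other arrays of 4 weeks by Dixon's test in the 27 groups of 4 values checked, a test that flags about 1 group in 20 by chance.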

How the results depend on the processing

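The calls of C1qa at both times, of Mrc1 at 4 weeks and in the difference, and of C1qb at 8 weeks, in the difference and in both channels kept their direction and their side of the threshold under every alternative run: normexp fitted on all spots, Feature Extraction processed signals, median centring in place of loess, a filter on both channels of all arrays, no filter, each array left out, the arrays of 1 time alone, the methods' t-test and the replicate block, where they apply. C1qb at 8 weeks ranged from 0.33 to 0.68 and its difference from 0.41 to 0.69 (highest adjusted p 0.046). The fitted DEP-channel difference of Mrc1 was called with the filter on both channels (0.26). Median centring called 4 members at 4 weeks and 7 at 8 weeks, where it called 7572 and 9409 of the 20636 gene names. It left array medians of -0.136 to -0.089 at 8 weeks. The filter on both channels called 1 member in the control channel, and 4194 genes in all.

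With processed signals, values that were not called turned sign for C1qb (0.11) and Mpeg1 (0.0487) at 4 weeks, Cd68 at 8 weeks (0.0283), C1qc (-0.11) and Csf1r (0.0042) in the difference, C1qa in the control channel (0.084) and C1qc in the DEP channel (-0.0236). With median centring this held for Cd68 at 4 weeks (-7e-04) and in the control channel (0.0381), Mpeg1 at 8 weeks (-0.10) and C1qc in the difference (-0.12) and the DEP channel (-0.0405), and with the filter on both channels for C1qa in the control (0.0406) and DEP (0.0016) channels. The cause was not tested. Without 1 array, ranges that crossed 0 were -0.0446 to 0.0257 for C1qb at 4 weeks and -0.136 to 0.0249 for Cd68 at 8 weeks. In the difference they were -0.103 to 0.0187 for C1qa, -0.0723 to 0.106 for C1qc, -0.172 to 0.0409 for Csf1r, -0.233 to 0.0553 for Lyz2 and -0.078 to 0.166 for Marco. In the control channel they were -0.102 to 0.0096 for C1qa, -0.0223 to 0.0383 for C1qc, -0.0801 to 0.027 for Cd68 and -0.106 to 0.31 for Marco, and in the DEP channel -0.0642 to 0.144 for C1qc, -0.0183 to 0.244 for Csf1r and -0.184 to 0.46 for Marco.

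Over all genes, 7894 were called at 4 weeks, 5044 with normexp fitted on all spots and 4659 by the methods' t-test. At 8 weeks 7711 were called, 4798 by the methods' t-test and 4472 to 8540 with 1 array left out, the fewest without replicate 2 of 8 weeks. In the difference 6392 were called, 3882 to 6852 with 1 array left out. Same-numbered arrays did not deviate together (correlations -0.008 to 0.016), so the numbers do not pair them, and the replicate block called 3209. Processed signals passed 1320, 1448, 2066, 2104 and 3014 genes at an unadjusted p of 0.01 and 2-fold at 4 weeks, at 8 weeks, in the difference and in the control and DEP channels, against 269, 608, 633, 549 and 996, and the filter on both channels 340 and 599 in the channels. The share of called genes that were higher was 56.7% at 4 weeks (67.9% with processed signals, 42.5% with median centring), 54.5% at 8 weeks (26.9% with median centring), 48.0% in the difference (35.5% and 28.9%) and 59.0% in the control channel (69.2% with median centring). Array weights, chosen after seeing the data, did not converge and are not given.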
